A study of Mus musculus with 12 samples.

Results

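The genes described here are 42 markers of macrophages and lymphocytes, the immune cells of the testicular interstitium, and they were read out of 24516 genes with a known symbol. Members were chosen by gene symbol, and reads were summed per gene over the transcripts that match a reference transcript or share its exons. All 42 were found, in 68 transcripts. They comprise 10 macrophage and myeloid genes, 6 scavenger receptors and other genes of resident macrophages, 2 lysozymes, 5 Fc receptors and adaptors, 9 T and NK cell genes, 4 B and plasma cell genes, 1 mast cell gene and 5 chemokines and chemokine receptors.

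RNA was sequenced from whole testes of 12 wild-type C57BL/6 males, an inbred strain, with no treatment and 3 mice at each of 3, 6, 12 and 18 months of age (3M, 6M, 12M and 18M). Libraries were depleted of ribosomal RNA, kept no strand and were sequenced from both ends. Their deposited counts, in which both reads of a pair are counted, summed to 50924104 to 71803379 per library. This is less than the number of reads sequenced. It is not known whether the mice of an age shared a litter, and p-values measure the spread between these mice. Levels are given as CPM, read counts scaled to a common library size with TMM, a method that evens out differences in library composition, or, where genes are compared with each other, as the deposited FPKM, which is also scaled by transcript length. In whole testis, fewer cells of a type and less RNA per cell cannot be told apart.

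Macrophages are the main leukocytes of the testis. They lie in the interstitium beside the Leydig cells, whose steroid synthesis they are known to influence, and on the surface of the seminiferous tubules. They depend on signals through the receptor encoded by Csf1r, take up debris through scavenger receptors such as Mrc1, Msr1 and Cd163, and bind antibody through Fc receptors. T cells are sparse in the normal testis, B cells are rare, and the blood-testis barrier keeps leukocytes away from the late germ cells.

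The labelled cell types were read from few transcripts, apart from 1 gene. Aif1, which encodes the calcium-binding protein IBA1 of macrophages and microglia, took 73.8% of all member reads. Its FPKM lay between 273 and 363 in the 12 mice, while no other member exceeded 13.9 FPKM in any mouse. The 42 members together took 0.0381% to 0.0471% of a library, and 0.0102% to 0.0131% without Aif1.

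Reads were present in all 12 libraries for 34 members, and 21 members had a mean of 1 CPM or more. The macrophage markers Cd68, Csf1r and Adgre1, which encode a lysosomal glycoprotein, the CSF-1 receptor and F4/80, were at a mean of 1.66, 1.59 and 0.948 FPKM. Lyz2, the lysozyme of macrophages, had the highest mean after Aif1 with 9.395 FPKM, followed by Fcgr3 (6.92), Msr1 (6.84) and Mrc1 (4.83). Of the lymphocyte members, Cd3d, a subunit of the T cell receptor complex, was the highest with a mean of 1.38 FPKM. Of its reads, 96.3% lay outside the reference structure. Jchain, which joins secreted antibodies, was the highest of the B and plasma cell members with 0.296 FPKM.

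Members near the limit of detection were mostly those of lymphocytes. Klrd1, an NK cell receptor, had 2 reads in all 12 libraries, and Cd79b and Cd79a, the signalling chains of the B cell receptor, had 14 and 40. Gzma (granzyme A) had 15 reads, Cd3g 18, the chemokine Ccl2 28 and Cd8a 66. If reads were independent, a gene with 0 reads in a library could still be present at up to 0.0417 to 0.0594 CPM, the level of 3 reads. Both reads of a pair are counted, so the limit could lie higher, and it covers counting error only.

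**Figure D1:**
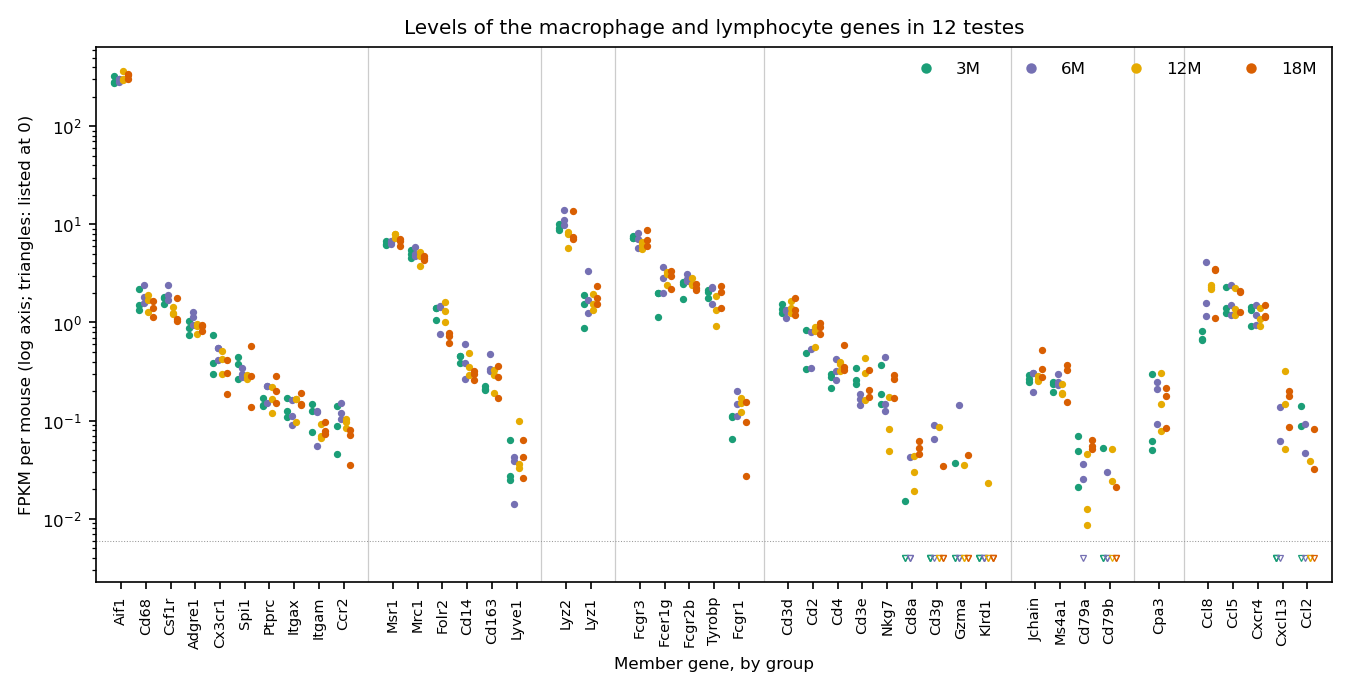
FPKM of each of the 42 genes in each of the 12 mice on a log axis, coloured by age and ordered by group; triangles mark mice in which a gene was listed at 0. Aif1 stands at 273 to 363 FPKM, every other value is at 13.9 FPKM or below, and the genes listed at 0 are lymphocyte genes and the chemokines Cxcl13 and Ccl2.

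Assembled transcripts bear on what was counted for these genes. In 33 members all reads fell in transcripts with the structure of a reference transcript, but in 9 members part of them fell in other assembled structures, and in 6 of these (Fcgr3, Cd3d, Lyz1, Msr1, Fcgr2b and Ccl5) the reference structures took less than 50% of the reads. Fcgr3, which encodes the activating IgG receptor CD16, had 1.15% of its reads in the reference structure, and the rest in 4 transcripts that start 5249 to 23293 nt upstream of it. The reads of Msr1, the class A scavenger receptor, were divided over 6 transcripts, of which the 2 reference structures held 10.6% and 0.28%. The 2 structures of Aif1 took nearly the same shares in every mouse, 74.8% to 77.7% for the reference structure.

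For several members the share of a structure swung widely between mice. Csf1r had 548 reads in 6M mouse 3 and 310 in 12M mouse 3, all in a structure that starts 8713 nt upstream, and 0 in the reference structure. In the other 10 mice the reverse held, with 228 to 432 reads in the reference structure and 0 in the other. Mrc1, the mannose receptor, had 69.3% of its reads in a structure that starts 1078 nt upstream in 18M mouse 3, and 0% in 7 mice. Folr2, the folate receptor of resident macrophages, had 85.7% of its reads in the structure with the most distal start in 18M mouse 2, against a median of 0%. The mice with such swings were of different ages, and the members were therefore read as sums per gene.

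**Figure D2:**
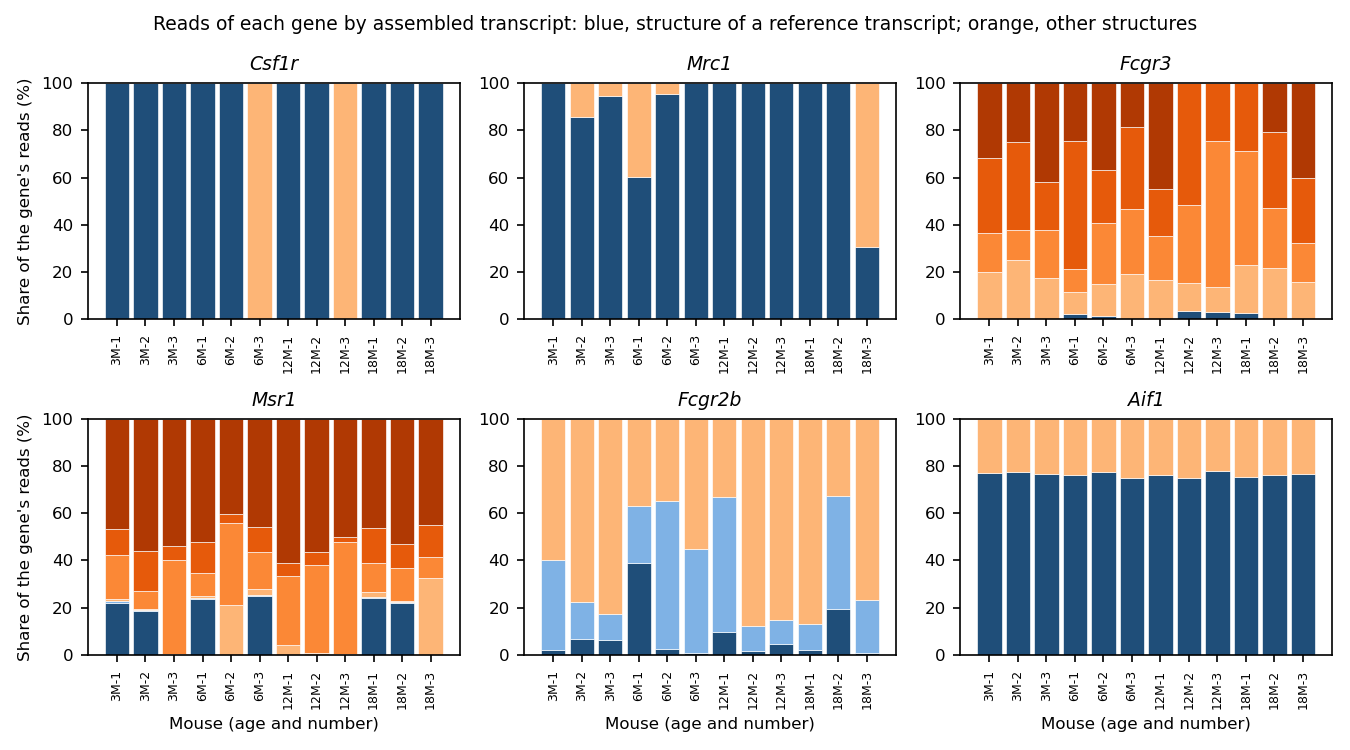
Share of the reads of 6 genes that each assembled transcript took, in percent, for each of the 12 mice; blue marks transcripts with a reference structure and orange the others. Csf1r switches fully in 6M mouse 3 and 12M mouse 3, Mrc1 is at 69.3% in the other structure in 18M mouse 3, and Aif1 keeps 74.8% to 77.7% in the reference structure.

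Coverage along the exons differed between members. All 30 exons of the reference Mrc1 transcript were covered above 10% of its highest exon, and so were all 4 of Lyz2, 8 of Aif1 and 5 each of Fcer1g, Tyrobp, Spi1 and Cd2. In Cd4, the co-receptor of helper T cells, exons 1 to 5 had a mean coverage of 0 to 0.37 reads per base, while exons 9 and 10 had 3.46 and 3.20. In Cpa3, the mast cell carboxypeptidase, exons 1 to 7 were at 0 to 0.21 and exons 8, 9 and 10 at 2.12, 2.40 and 3.00. In Itgax, the integrin CD11c of dendritic cells, exons 4 to 9 had no coverage and exon 28 had 5.99.

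Of the 29 reference transcripts of members with at least 4 exons and 100 reads, 4 (Cd4, Cpa3, Itgax and 1 of the 2 of Cd163) had at least 33.3% of their exons below 10% of the highest exon, against 5.89% of 21406 such transcripts in all. The values of Cd4, Cpa3 and Itgax therefore rest mainly on the 3′ exons, and the reads do not show the full transcript. What lies behind the uneven coverage was not tested.

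**Figure D3:**
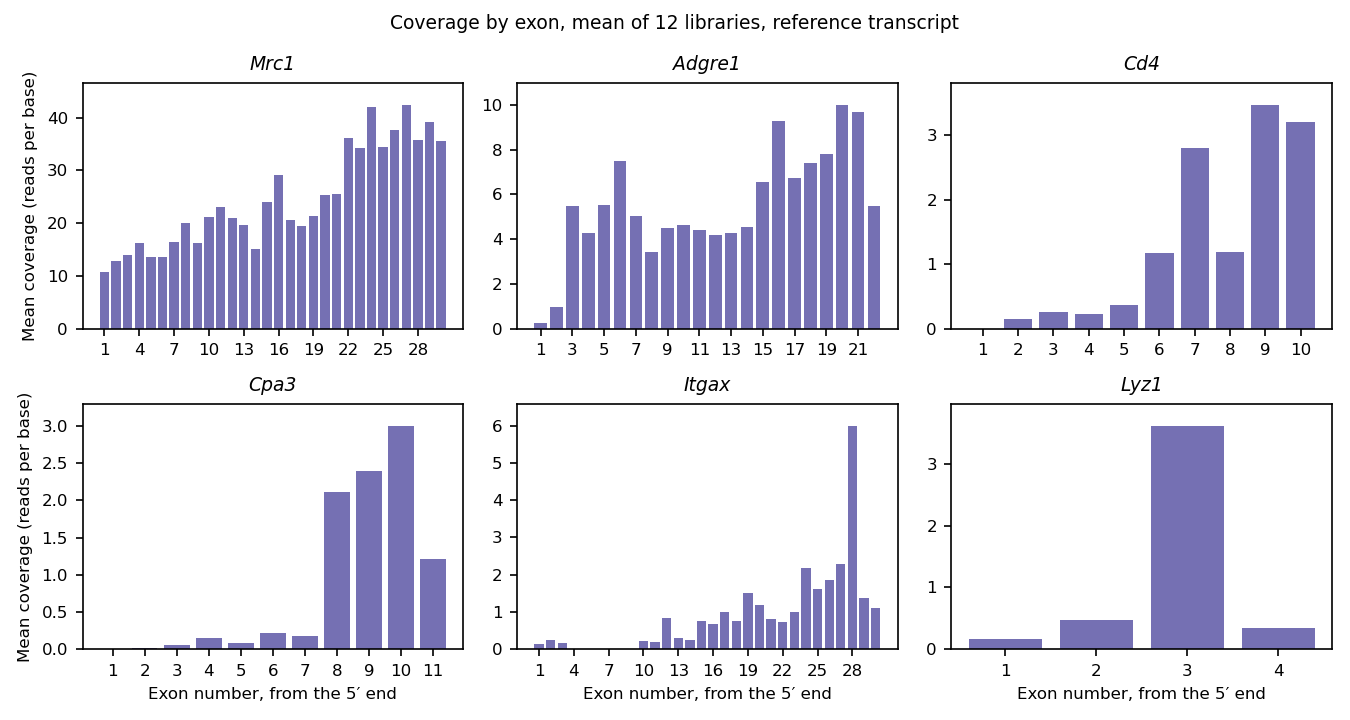
Mean coverage over 12 libraries, in reads per base, of each exon of the reference transcript of 6 genes, numbered from the 5′ end. Mrc1 and most of Adgre1 are covered throughout, Cd4, Cpa3 and Itgax mainly in their 3′ exons, and Lyz1 mainly in exon 3.

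The lysozyme genes are neighbours on chromosome 10 with nearly the same coding sequence, and the sequences of exons 2 and 3 are shown to let the genes be compared. Both encode the enzyme that cleaves bacterial cell walls; Lyz2 is the form of macrophages and Lyz1 that of Paneth cells in the gut. Their coding parts in GENCODE vM21 (mm10) are 444 nt long without the stop codon and identical at 422 nt (95.045%), with a longest identical run of 118 nt. Exon 2 lies at chr10:117291029-117291193 in Lyz1 and chr10:117280641-117280805 in Lyz2, both on the minus strand, and differs at 6 of 165 nt, given in capitals.
Lyz1 exon 2: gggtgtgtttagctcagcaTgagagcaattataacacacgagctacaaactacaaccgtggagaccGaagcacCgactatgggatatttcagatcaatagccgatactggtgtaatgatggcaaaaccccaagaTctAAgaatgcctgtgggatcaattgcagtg
Lyz2 exon 2: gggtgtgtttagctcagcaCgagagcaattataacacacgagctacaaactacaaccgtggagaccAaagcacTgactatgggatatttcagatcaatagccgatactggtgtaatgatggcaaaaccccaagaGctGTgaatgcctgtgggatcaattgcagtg
Exon 3, at chr10:117289119-117289197 and chr10:117278643-117278721, is the same in both over its 79 nt, and is shorter than a read (101 nt).
Lyz1 and Lyz2 exon 3: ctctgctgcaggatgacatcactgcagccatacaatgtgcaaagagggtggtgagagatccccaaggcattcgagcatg

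The reference Lyz1 transcript had a mean coverage of 3.61 in exon 3, and 0.17, 0.48 and 0.34 in exons 1, 2 and 4. The 4 exons of Lyz2 were at 36.8, 49.1, 57.8 and 64.0. Of the reads listed for Lyz1, 93.8% belonged to a transcript at chr10:117277333-117338891 whose exons overlap those of Lyz2 by 855 nt and whose intron is not in GENCODE. Without it Lyz1 had 86 reads over the 12 libraries, and its values are uncertain.

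Lyz2 was at 11.4, 10.3 and 9.83 CPM in the 3M mice, 11.2, 12.5 and 15.5 CPM at 6M, 8.98, 9.62 and 6.34 CPM at 12M and 15.4, 8.32 and 8.02 CPM at 18M. Lyz1 was at 2.21, 1.02 and 1.81 CPM in the 3M mice, 1.46, 1.96 and 3.795 CPM at 6M, 1.58, 1.79 and 2.196 CPM at 12M and 2.72, 2.06 and 1.79 CPM at 18M. Both were highest in 6M mouse 3 and next highest in 18M mouse 1, and in both the 3M and 18M mice overlapped. Most reads listed for Lyz1 lay in the transcript that overlaps Lyz2, so the 2 genes are not independent readings. The 12M values of Lyz2 lay below all of those at 3M and 6M.

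Over the whole transcripts, 1.89% of the windows of 101 nt in Lyz1 and 1.81% of those in Lyz2 occur in the other gene. Itgam, Folr2 and Csf1r also share sequence or position with other genes. Of the windows of 101 nt in Itgam (CD11b), 64.3% also occur in the overlapping gene Gm49368, and 41.99% of those of Folr2 occur on the other strand in Gm10602. For Csf1r 13.5% are shared with the neighbouring Hmgxb3. Since the libraries kept no strand, reads of Folr2 and Gm10602 cannot be told apart there.

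No member passed the test in any comparison of ages. With edgeR's quasi-likelihood test and Benjamini-Hochberg adjustment over all features tested, 0 of 33 members were called between 3M and 18M at an adjusted p of 0.05 or less, where 0.065% of 24605 features were called. The same held for 0 of 32 members from 3M to 6M (0.0733% of all features), 0 of 32 from 6M to 12M (0.0407%), 0 of 33 from 12M to 18M (0.0203%) and 0 of 34 for a slope on age in months over all 12 mice (0.171%). DESeq2 called Ccl8 between 3M and 18M and Csf1r between 6M and 12M, and no member in the other comparisons. The other 9 members of the comparison of 3M with 18M had too few reads to be tested.

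At an unadjusted p of 0.05, Ccl8, Fcer1g and Cd4 were higher at 18M than at 3M, 3 of 33 members against 5.69% of all features, and Folr2 and Cd14 were lower, 2 of 33 against 6.34%. From 3M to 6M 4 of 32 passed it (Ccl8, Cd163, Fcer1g and Cd3e; 3.94% of all), from 6M to 12M 2 of 32 (Csf1r and Lyz2; 7.49%) and from 12M to 18M 1 of 33 (Folr2; 3.56%). On the slope Aif1, Cd4, Cd2, Ccl8 and Cxcl13 passed it with a positive slope, 5 of 34 against 7.16%, and Csf1r and Folr2 with a negative one, 2 of 34 against 8.2%. These comparisons share mice, so that a gene named in several is not independent evidence.

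The 33 members lay on both sides of 0, with a median log2 fold change of 0.05 from 3M to 18M against 0.01 for all features, and their standard errors ran from 0.08 to 0.71. Fold changes were positive in 20 members and negative in 12, while Adgre1 was at 0.00 ± 0.14 (SE). The 18M mice lay above all 3M mice in 4 tested members (Msr1, Fcer1g, Cd4 and Ccl8), where 9.38% of all features did, and below them in 2 (Folr2 and Cd14), where 10.3% did. Read as shares of 33, neither count sets the members apart from the other features.

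**Figure D4:**
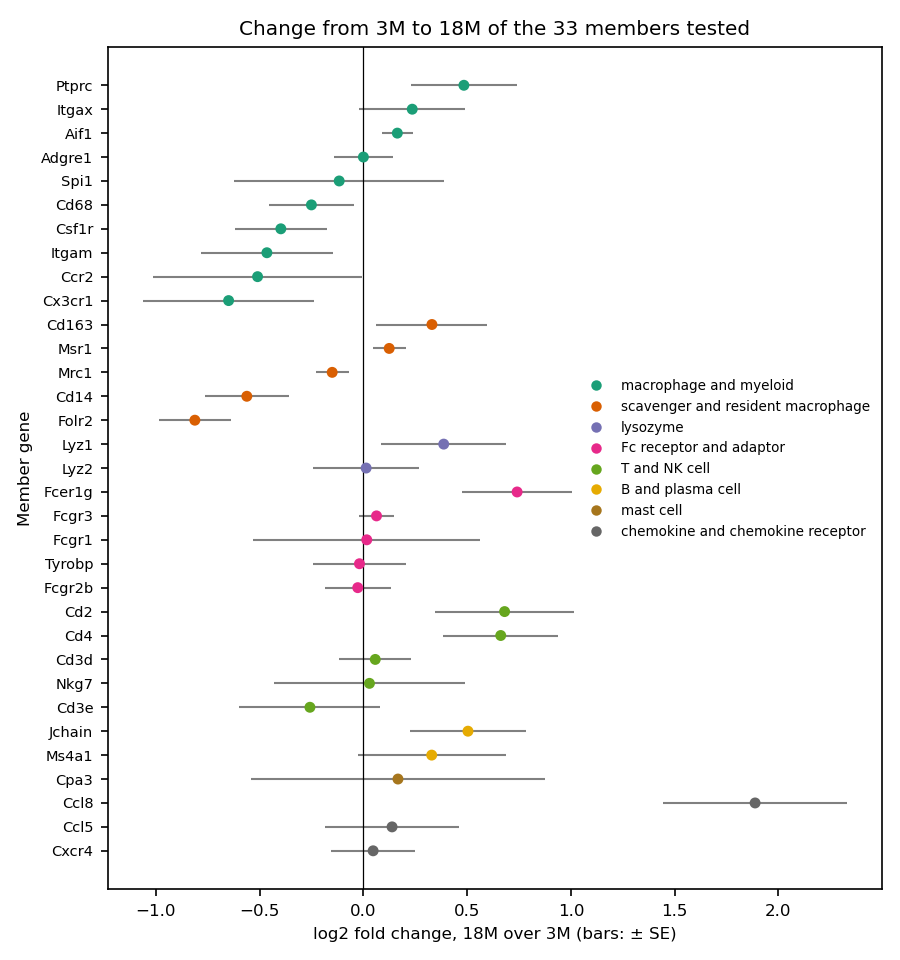
Log2 fold change from 3M to 18M with its standard error for the 33 members tested, coloured by group. Ccl8 at 1.89 and Folr2 at -0.81 lie farthest from 0, and no member was called.

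Ccl8, a chemokine, had the largest positive fold change of the 33 members tested from 3M to 18M. It attracts monocytes and T cells and is a known product of resident macrophages. Ccl8 was at 0.382, 0.369 and 0.452 CPM in the 3M mice, 0.867, 0.634 and 2.21 CPM at 6M, 1.27, 1.35 and 1.201 CPM at 12M and 1.93, 0.624 and 1.89 CPM at 18M. The 3M mice lay close together below all older mice, while the 6M and 18M mice spread widely. The log2 fold change from 3M to 18M was 1.89 ± 0.44 (SE; edgeR adjusted p = 0.349), and 2.25 ± 0.20 (adjusted p = 0.0396) without 18M mouse 2. From 3M to 6M it was 1.62 ± 0.49 (adjusted p = 0.991), and 0.90 ± 0.29 without 6M mouse 3. The slope was 0.085 ± 0.037 per month (adjusted p = 0.305), and 0.120 ± 0.026 (adjusted p = 0.115) without 6M mouse 3.

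Ccl8 lies at chr11:82115185-82116799 on the plus strand (GENCODE vM21, mm10). Its promoter, 250 bases before to 50 after the start (chr11:82114935-82115234, RefSeq sequence of GRCm38.p6), is shown as that of the tested member with the largest positive fold change, with matches to GAGGAA on either strand in capitals. This is the core of the motif bound by PU.1, the factor encoded by the member Spi1.
Ccl8: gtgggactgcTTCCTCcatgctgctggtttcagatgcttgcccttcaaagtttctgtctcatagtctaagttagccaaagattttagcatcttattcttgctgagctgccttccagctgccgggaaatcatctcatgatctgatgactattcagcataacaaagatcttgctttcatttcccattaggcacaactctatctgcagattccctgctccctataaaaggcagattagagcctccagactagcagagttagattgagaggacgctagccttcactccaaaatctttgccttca
The promoter of Folr2 (chr7:101845282-101845581, minus strand), the tested member with the largest negative one, had no match, and that of Mrc1 (chr2:14229164-14229463, plus strand), the scavenger receptor with all exons covered, had 3.
Folr2: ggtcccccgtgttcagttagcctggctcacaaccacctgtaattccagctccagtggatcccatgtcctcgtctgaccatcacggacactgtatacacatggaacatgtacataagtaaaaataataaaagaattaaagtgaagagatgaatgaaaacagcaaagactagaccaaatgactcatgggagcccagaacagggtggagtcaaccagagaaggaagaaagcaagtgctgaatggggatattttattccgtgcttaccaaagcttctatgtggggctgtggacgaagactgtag
Mrc1: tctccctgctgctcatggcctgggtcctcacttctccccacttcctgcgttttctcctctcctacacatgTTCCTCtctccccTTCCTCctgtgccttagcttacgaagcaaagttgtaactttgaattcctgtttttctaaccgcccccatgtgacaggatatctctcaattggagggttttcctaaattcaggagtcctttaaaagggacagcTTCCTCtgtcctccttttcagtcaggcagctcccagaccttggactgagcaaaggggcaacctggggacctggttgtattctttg
Promoter sequences were at hand for 28 members. The motif GAGGAA was found in 14 of their 31 promoters, and in 28.3% of 32851 promoters of all genes. The overlapping motif GGAAGT was found in 13 of the 31, and in 23.8% of all. Folr2 was among the members with GGAAGT and Ccl8 was not, although the Folr2 sequence shown does not hold it. A match is not a binding site.

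Cxcl13, the chemokine that draws B cells, was not detected at 3M. It had 0 reads in the 3 mice at 3M, 4, 0 and 10 at 6M, 24, 10 and 4 at 12M, and 7, 12 and 18 at 18M. All 18M mice had reads and no 3M mouse did. The reads of the 18M mice together gave 0.204 CPM. This is about 3.5-fold above 0.0572 CPM, the highest level of 3 reads in a library at 3M. The ratio takes each read as independent, although both reads of a pair are counted, and so may be too large. It leaves out counting error at 18M and the spread between mice, with 18M mouse 1 at 0.124 CPM. The gene was tested on the slope only, with 0.197 ± 0.078 per month (adjusted p = 0.268), a fitted value that depends on how counts of 0 are treated.

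The other chemokine genes did not separate the ages. Ccl5 was at 1.49, 0.7195 and 0.868 CPM in the 3M mice, 0.926, 1.54 and 0.7204 CPM at 6M, 0.864, 0.803 and 1.44 CPM at 12M and 1.24, 0.832 and 1.29 CPM at 18M. Cxcr4 was at 2.59, 2.77 and 1.81 CPM in the 3M mice, 1.87, 2.32 and 2.88 CPM at 6M, 2.74, 1.81 and 2.09 CPM at 12M and 2.21, 2.25 and 2.92 CPM at 18M. Ccl5 (RANTES) attracts T cells, and Cxcr4 is the receptor of Cxcl12; in both genes the 3M mice spanned most of the range of the older mice. Ccl2, the main attractant of monocytes, had 0 to 7 reads in a mouse.

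Among the scavenger and resident macrophage genes tested, Folr2 and Cd14 had the lowest fold changes. Folr2 was at 1.64, 1.63 and 1.25 CPM in the 3M mice, 0.906, 1.66 and 1.67 CPM at 6M, 1.54, 1.92 and 1.17 CPM at 12M and 0.866, 0.794 and 0.904 CPM at 18M. Its 3 values at 18M lay below all others, 1 of the 6M mice only just above them, while the 3M, 6M and 12M mice overlapped. The log2 fold change from 3M to 18M was -0.81 ± 0.17 (adjusted p = 0.341) and the slope -0.046 ± 0.019 per month (adjusted p = 0.282). Cd14 was at 0.687, 0.807 and 0.834 CPM in the 3M mice, 0.473, 0.693 and 1.05 CPM at 6M, 0.881, 0.635 and 0.506 CPM at 12M and 0.477, 0.567 and 0.528 CPM at 18M. Cd14, the co-receptor for lipopolysaccharide, had a log2 fold change of -0.56 ± 0.20 (adjusted p = 0.378), and its 6M mice reached both ends of the range.

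The more abundant scavenger receptors differed little between ages. Mrc1 was at 25.9, 30.6 and 28.6 CPM in the 3M mice, 28.3, 33.5 and 26.7 CPM at 6M, 27.2, 30.3 and 21.04 CPM at 12M and 26.95, 25.5 and 24.1 CPM at 18M. Msr1 was at 11.4, 10.8 and 10.2 CPM in the 3M mice, 10.9, 11.5 and 11.1 CPM at 6M, 11.8, 12.99 and 12.2 CPM at 12M and 12.2, 11.5 and 11.6 CPM at 18M. Mrc1 was lowest in 12M mouse 3, and Msr1 stayed within 10.2 to 12.99 CPM in all 12 mice, a narrow range although its 12M and 18M mice lay just above its 3M and 6M mice. Cd163 was at 1.01, 1.07 and 1.02 CPM in the 3M mice, 1.54, 2.297 and 1.58 CPM at 6M, 1.42, 1.61 and 0.916 CPM at 12M and 1.71, 0.832 and 1.35 CPM at 18M. The 3M values of Cd163, the receptor for haemoglobin bound to haptoglobin, lay close together at the lower end, below all 6M mice, and the 12M and 18M mice scattered on both sides of them. Lyve1, a hyaluronan receptor of perivascular macrophages, had 85 reads in all and was not tested.

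Within the macrophage and myeloid genes the directions were mixed: from 3M to 18M 3 of 10 had a positive fold change above 0.1, 6 a negative one below -0.1, and the median was -0.18. Aif1 was at 326, 282 and 278 CPM in the 3M mice, 308, 309 and 287 CPM at 6M, 309, 305 and 361 CPM at 12M and 309, 336 and 346 CPM at 18M. Aif1 had the smallest standard error of the members, and its log2 fold change was 0.16 ± 0.08. 12M mouse 3, which was highest for Aif1, was also highest for a summed list of 8 germ cell genes, with 13069.5 CPM against a median of 10293.5 CPM; whether germ cells took part in the level of Aif1 was not tested.

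Csf1r was at 7.42, 7.58 and 6.43 CPM in the 3M mice, 7.13, 8.001 and 9.63 CPM at 6M, 5.18, 6.02 and 4.897 CPM at 12M and 7.44, 4.31 and 4.49 CPM at 18M. The values of Csf1r were higher at 3M and 6M than at 12M, and at 18M 1 mouse lay with the younger and 2 with the 12M mice. Csf1r had the lowest unadjusted p on the slope, with -0.038 ± 0.014 per month (adjusted p = 0.232). From 6M to 12M its log2 fold change was -0.62 ± 0.15 (edgeR adjusted p = 0.638; DESeq2 adjusted p = 0.0297), and -0.50 ± 0.14 without 6M mouse 3.

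Cx3cr1 was at 1.202, 2.98 and 1.56 CPM in the 3M mice, 2.21, 1.68 and 2.196 CPM at 6M, 2.05, 1.23 and 1.71 CPM at 12M and 1.66, 0.757 and 1.24 CPM at 18M. Cx3cr1, the receptor of fractalkine, had a log2 fold change of -0.65 ± 0.41 (adjusted p = 0.548), which was -0.18 to -0.93 with 1 mouse left out, and a slope of -0.046 ± 0.021 per month (adjusted p = 0.326). The 3M mice alone ran from its lower values to its highest. Ccr2, the receptor of Ccl2 on recruited monocytes, was lower still, at 0.151 to 0.594 CPM, with a slope of -0.044 ± 0.027 per month (adjusted p = 0.453), or -0.026 without 18M mouse 2.

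Adgre1 was at 2.61, 3.07 and 3.596 CPM in the 3M mice, 3.33, 3.98 and 4.39 CPM at 6M, 3.34, 2.69 and 3.18 CPM at 12M and 3.18, 3.25 and 2.84 CPM at 18M. Cd68 was at 2.75, 1.79 and 1.998 CPM in the 3M mice, 2.19, 2.12 and 3.005 CPM at 6M, 2.12, 1.76 and 2.24 CPM at 12M and 2.07, 1.51 and 1.89 CPM at 18M. Ptprc was at 1.01, 0.8599 and 0.851 CPM in the 3M mice, 0.906, 1.35 and 1.34 CPM at 6M, 0.982, 1.33 and 0.695 CPM at 12M and 1.697, 0.908 and 1.196 CPM at 18M. In these 3 genes (F4/80, the lysosomal marker CD68 and the pan-leukocyte phosphatase CD45) the 3M and 18M mice overlapped, while the 6M mice lay above the 18M mice in Adgre1 and Cd68. Spi1, Itgam and Itgax had means of 0.479 to 0.606 CPM, and their log2 fold changes lay between -0.47 and 0.24.

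**Figure D5:**
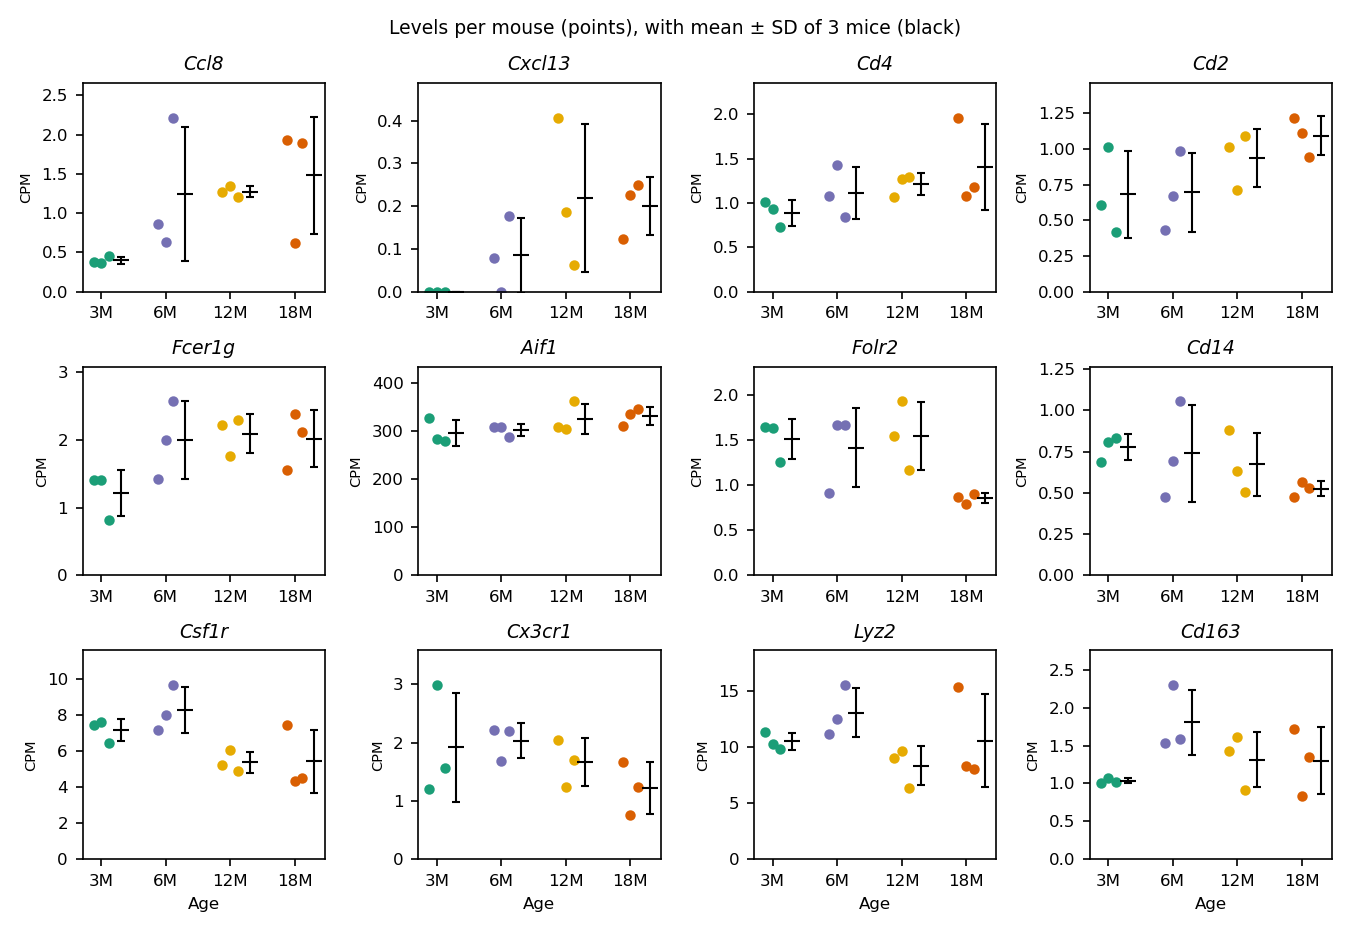
CPM per mouse of 12 genes at 3M, 6M, 12M and 18M (points), with the mean ± SD of 3 mice in black and each axis starting at 0. Ccl8, Cxcl13, Fcer1g and Cd4 have their 18M mice above their 3M mice and Folr2 and Cd14 below; in the other 6 genes both ages overlap.

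Of the Fc receptor genes, Fcer1g differed most between the ages. Fcer1g was at 1.41, 1.404 and 0.816 CPM in the 3M mice, 1.42, 2.0004 and 2.57 CPM at 6M, 2.22, 1.76 and 2.29 CPM at 12M and 1.56, 2.38 and 2.11 CPM at 18M. It encodes the signalling chain that activating Fc receptors need, and the 18M mice lay above the 3M mice. The log2 fold change was 0.74 ± 0.27 (adjusted p = 0.378), and 0.52 to 0.90 with 1 mouse left out. The IgG receptors overlapped between 3M and 18M. Fcgr3 was at 21.1, 20.3 and 19.3 CPM in the 3M mice, 21.97, 15.6 and 20.8 CPM at 6M, 14.9, 20.7 and 20.5 CPM at 12M and 19.8, 20.3 and 23.2 CPM at 18M. Fcgr2b was at 5.57, 6.04 and 4.45 CPM in the 3M mice, 5.14, 5.05 and 6.41 CPM at 6M, 5.17, 6.58 and 6.13 CPM at 12M and 6.01, 4.48 and 5.23 CPM at 18M. Fcgr3 and the inhibitory receptor Fcgr2b had their lowest mice at 12M and 3M, and in both the 3M and 18M mice overlapped. Tyrobp was at 1.07, 1.28 and 1.25 CPM in the 3M mice, 1.36, 0.931 and 1.39 CPM at 6M, 1.13, 0.579 and 0.806 CPM at 12M and 1.45, 1.25 and 0.862 CPM at 18M. Tyrobp, the adaptor DAP12 of myeloid cells, had its 2 lowest values at 12M. Fcgr1, the high-affinity IgG receptor, was at 0.0946 to 0.562 CPM, with 18M mouse 2 the lowest and 6M mouse 3 the highest, and its 12M mice lay above its 3M mice.

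Among the T and NK cell genes tested, Cd4 and Cd2 had the largest fold changes. Cd4 was at 1.01, 0.9301 and 0.7295 CPM in the 3M mice, 1.08, 1.43 and 0.843 CPM at 6M, 1.07, 1.27 and 1.295 CPM at 12M and 1.96, 1.08 and 1.18 CPM at 18M. The 18M mice lay above the 3M mice, and 18M mouse 1 stood apart from the others; the log2 fold change was 0.66. Cd2, an adhesion receptor of T and NK cells, was at 0.611, 1.02 and 0.417 CPM at 3M and at 1.22, 1.12 and 0.945 CPM at 18M, and these groups overlap. Its log2 fold change was 0.68 ± 0.33 (adjusted p = 0.461), or 1.09 without 3M mouse 2 and 0.42 without 3M mouse 3, and its slope 0.049 ± 0.020 per month (adjusted p = 0.279).

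Cd3d was at 2.25, 2.404 and 2.74 CPM in the 3M mice, 1.97, 2.297 and 2.39 CPM at 6M, 2.17, 2.52 and 2.94 CPM at 12M and 3.15, 2.14 and 2.405 CPM at 18M. Cd3d did not separate the ages, and 96.3% of its reads lay in a structure of 3 exons rather than the reference one. Exon 2 of this structure runs over exons 2 to 4 of the reference and the introns between them. Mean coverage was 0.15, 7.24 and 10.8 in its exons 1, 2 and 3. The values of Cd3d are therefore uncertain as a reading of the full transcript. Cd3e was at 0.228 to 0.678 CPM with a log2 fold change of -0.26 from 3M to 18M. Cd8a, the co-receptor of cytotoxic T cells, had 3 reads at 3M, all in 1 mouse, and 35 at 18M. This corresponds to a ratio of 10.7 with an exact 95% interval of 3.39 to 54.6. The interval takes each read as independent, although both reads of a pair are counted, so it understates the counting error. It also leaves out the spread between mice. Nkg7, Gzma and Klrd1, which mark cytotoxic and NK cells, had 127, 15 and 2 reads in all.

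The B and plasma cell members were all below 1 CPM. Jchain ran from 0.439 to 1.18 CPM and was highest in 18M mouse 1, and Ms4a1 (CD20) ran from 0.348 to 0.832 CPM, with both ends at 18M. Their log2 fold changes from 3M to 18M were 0.50 and 0.33. Cpa3 was at 0.0868 to 0.474 CPM, and the 3M mice alone spanned nearly all of this range.

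Summed over the members of a group, the levels overlapped between 3M and 18M in 7 of 8 groups. The macrophage and myeloid genes, mostly Aif1, summed to 295 to 344 CPM at 3M and 309.7 to 329 CPM at 6M. At 12M they summed to 319.7 to 376 CPM and at 18M to 328 to 359 CPM. This sum follows Aif1 and does not describe the other genes of the group. The median log2 fold change of the 10 genes from 3M to 18M was -0.18. The scavenger and resident macrophage genes summed to 40.8 to 45.2 CPM at 3M, 42.1 to 49.6 CPM at 6M, 36.1 to 47.6 CPM at 12M and 38.7 to 42.4 CPM at 18M. The T and NK cell genes summed to 4.41 to 5.02 CPM at 3M and 4.28 to 4.97 CPM at 6M. At 12M they summed to 5.12 to 5.96 CPM and at 18M to 5.201 to 7.05 CPM. This was the group in which the 18M mice lay above the 3M mice, by a narrow gap. Its log2 of 18M over 3M was 0.31, and 0.16 without 18M mouse 1. Cd3d, whose values are uncertain, had the highest level of the genes in this group. These sums are a description, with no test.

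1 library was the highest in several macrophage genes. 6M mouse 3 was the highest of the 12 mice in 8 of the 23 macrophage, scavenger, lysozyme and Fc receptor members (Cd68, Csf1r, Adgre1, Cd14, Lyz1, Lyz2, Fcer1g and Fcgr1). It was also highest for the summed level of 40 other macrophage genes, with 166 CPM against a median of 118, for 8 Leydig cell genes, with 1339.9 CPM against 799, and for 8 Sertoli cell genes, with 367 CPM against 299, and lowest for 8 germ cell genes, with 9192 CPM. Among the 8 immune members, Lyz1 was not independent of Lyz2. The share of all features that were highest in 6M mouse 3 was not determined, so 8 of 23 does not set the members apart. With edgeR, no member was called on the slope or in either comparison with 6M, with 6M mouse 3 included or left out. The DESeq2 call of Csf1r from 6M to 12M was not refitted without this mouse.

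Other immune genes were read beside the members. Of 118 further genes of macrophages, lymphocytes, mast cells and granulocytes and of their cytokines and chemokines, 113 were in the table and 69 were tested between 3M and 18M. Called were 0 with edgeR in either test, while DESeq2 called Cxcl12 between 3M and 18M, and Cxcl12 and Pf4 on the slope, both lower with age. At an unadjusted p of 0.05, 4 of 69 were higher, against 5.69% of all features, and 5 lower, against 6.34%. On the slope 5 of 77 were higher, against 7.16%, and 10 lower, against 8.2%. Their median log2 fold change from 3M to 18M was -0.02. Of the 40 other macrophage genes 36 were tested, with 3 higher (Cd209f, Cd52 and Clec10a) and 3 lower (Irf8, Ms4a7 and Pf4) at an unadjusted p of 0.05 and a median of -0.10. On the slope 4 of 39 were higher (Cd209f, Cd52, Clec10a and Lst1) and 8 lower (Cbr2, Cybb, F13a1, Irf8, Lcp1, Mpeg1, Ms4a7 and Pf4), against the same 7.16% and 8.2%. From 6M to 12M Cbr2, Cybb, F13a1, Lcp1, Mpeg1, Ms4a7 and Slc11a1 passed this threshold, all lower, where 7.49% of all features passed in either direction. Their edgeR adjusted p was 0.517 or more, and these comparisons share mice.

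Among those at 1 CPM or more, the largest positive fold changes from 3M to 18M were in Cd209f, a lectin of resident macrophages, with a log2 fold change of 1.15 ± 0.35 (adjusted p = 0.354), Itgb2, the shared chain of the leukocyte integrins, with 0.38 ± 0.22 (adjusted p = 0.514), and Cxcr5, the receptor of Cxcl13, with 0.30 ± 0.14 (adjusted p = 0.441). The largest negative ones were in Ncf1, a subunit of the phagocyte oxidase, with -1.03 ± 0.56 (adjusted p = 0.491), Cx3cl1, the ligand of Cx3cr1, with -0.74 ± 0.28 (adjusted p = 0.387), and Cxcl12, the ligand of Cxcr4, with -0.70 ± 0.19 (adjusted p = 0.353). On the slope Ncf1, Cxcl12 and Cx3cl1 again had the most negative values, at -0.058, -0.051 and -0.047 per month, and Cd209f and Cxcr5 had the largest positive slopes, at 0.061 and 0.023 per month.

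Genes of other testis cells were summed beside these. The 8 Leydig cell genes had a median log2 fold change of -0.88 from 3M to 18M, all of their sums at 18M (556 to 772 CPM) lay below those at 3M (886 to 1059.5 CPM), and Cyp11a1 and Cyp17a1, enzymes of steroid synthesis, were called on the slope. The 8 peritubular and stromal genes had a median of -0.52, with the collagen genes Col1a2 and Col3a1 called on the slope. Sertoli cell, endothelial and germ cell genes had medians of 0.00, -0.08 and 0.04, with no gene called by edgeR. Red blood cell genes had a median of -0.14 and fat genes -0.03, and 8 epididymis genes summed to 0.790 to 2.12 CPM, with 2 of them (Lcn5 and Adam28) at 0 reads. Of the 30 other lymphocyte genes 14 were tested and 5 were not analysed here (Trac, Trbc1, Trbc2, Ighm and Igkc, the constant parts of the T cell receptor and antibody chains), with a median of 0.10 and sums of 39.6 to 42.3 CPM at 3M, 41.7 to 44.4 CPM at 6M, 38.5 to 47.1 CPM at 12M and 42.4 to 44.97 CPM at 18M. The 20 other mast cell and granulocyte genes, of which 4 were tested, had 5 at 0 reads, among them the mast cell proteases Mcpt4, Cma1 and Tpsb2, and the 28 cytokine and chemokine genes had a median of -0.06. The part of the Leydig and stromal genes in the levels of the macrophage genes was not tested.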

How the data were processed

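RNA of 12 testes (1 library per mouse, 3 mice at each of 4 ages) was depleted of ribosomal RNA and sequenced from both ends without strand. The authors aligned the reads to mm10 with HISAT2 and assembled and quantified transcripts with StringTie 1.3.3b. The deposited expected counts, whole numbers made by the authors as coverage times length over the read length of 101 nt and rounded up, were used as they stand (0 of 863604 values differ from this by more than 1 read). The deposited FPKM values were not normalized further. Exon coordinates and coverage came from the authors' assemblies, and annotation from GENCODE vM21.

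Counts of transcripts of class =, c, j or o were summed per gene symbol, and other loci were kept apart. All were tested with edgeR 4.0.16 (R 4.3.3; TMM, filterByExpr, quasi-likelihood F-test, Benjamini-Hochberg adjustment over all features), with 6 libraries in each fit of a pair of ages and 12 for the slope on age, and the fits were tested on simulated data. Features at an adjusted p-value of at most 0.05 were called. Standard errors with edgeR were computed as the size of the fold change or slope over the square root of its F statistic. DESeq2 1.42.0 was the alternative test. Other alternatives were the size factors of DESeq2, library size only, no filter on low counts, reference transcripts only, the mouse number as a block, all libraries in 1 fit, another call rule, and each library left out. Python 3.11.15, numpy 2.4.6, pandas 2.3.3 and matplotlib 3.10.9 served for tables and figures.

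The members and gene lists were chosen with earlier results of these data known. Values in every mouse are given for members with a mean of 1 CPM or more. Standard errors and adjusted p-values are given for the 3 members with the most positive and the 3 with the most negative value from 3M to 18M and on the slope, and further for Csf1r, Adgre1 and Aif1, which were chosen after their values were seen. Of the other immune genes, the same 3 and 3 at 1 CPM or more are named, except 1 that is not reported here; genes below an unadjusted p of 0.05 were named after it was known.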

Additional observations from a re-analysis of the deposited data

Results flagged for a closer look

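Beside the members' summed transcripts, 2 assembled transcripts carry a member's symbol but were left out of the sums by their class, and both held reads. For Folr2 it is a single exon of 2634 nt that runs over exons and introns of the gene and overlaps the antisense gene Gm10602 by 2223 nt. It held 1765 reads over the 12 libraries, against 900 in the transcripts that were summed. In CPM (mean ± SD, n = 3) the 3M mice had 3.19 ± 0.28, the 6M mice 2.83 ± 1.11, the 12M mice 2.42 ± 0.03 and the 18M mice 2.01 ± 0.15. For Msr1 it is a transcript of 2 exons assembled on the opposite strand, with 874 reads over the 12 libraries. The 3M mice had 1.29 ± 0.08 CPM, the 6M mice 0.976 ± 0.086, the 12M mice 1.48 ± 0.37 and the 18M mice 1.33 ± 0.16. Both are given because they held more than 3 reads that were in no member's sum. Their reads were counted with the other loci that were kept apart, and no test result for these was read out here. Strand was not kept.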

How the results depend on the processing

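The main count of members called was 0 in each comparison. DESeq2 gave 1 from 3M to 18M (Ccl8, log2 fold change 1.89, adjusted p = 0.00616; 0.0396 with edgeR without 18M mouse 2, against 0.283 to 0.678 under the other edgeR settings) and 1 from 6M to 12M (Csf1r), with 296 and 135 features called in all against 16 and 10 with edgeR; it left the adjusted p empty for 6 members from 3M to 18M and 8 on the slope. At an unadjusted p of 0.05, 5 members passed from 3M to 18M, 4 from 3M to 6M, 2 from 6M to 12M, 1 from 12M to 18M and 7 on the slope. With 1 library left out, 0 to 1 members were called from 3M to 18M. With the mouse number as a replicate block 0 members were called in each comparison, and of all features 0 from 3M to 18M and 22 on the slope. Over all tested features, same-numbered mice deviated together with r of -0.04 to 0.07 over 18 pairs. This shows no broad pairing by number, but a pairing that touches few genes would not be seen. In log2 of the summed level at 18M over 3M, reference transcripts alone moved the scavenger genes from -0.09 to -0.35, the Fc receptor genes from 0.08 to 0.36 and the T and NK cell genes from 0.31 to 0.52; the mast cell gene ran from -0.22 to 1.33 with 1 library left out. Ccl8, Folr2, Cd14, Cd2, Fcer1g, Cx3cr1, Ccr2 and Cxcl13 kept their signs under these settings. They were picked for the most positive or most negative values, and the signs of the other members are not given. Depth limits the 9 members that were not tested from 3M to 18M. The causes were not tested.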
